A study of Rattus norvegicus with 20 samples.

Results

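The brains described here are the 3 of 10 whose injured hemisphere carried little galectin-3 RNA. Animals were chosen by 1 value, the raw count of Lgals3 divided by the raw count of Polr2a in the ipsilateral library, which had to lie below 0.1. Animals 3, 5 and 10 met this rule with ratios of 0.0367, 0.0286 and 0.0276, so that 6 of the 20 libraries enter the comparison. The nearest animal outside the rule was animal 2 at 0.242, and the other 7 animals reached 0.854. Contralateral ratios ran from 0.0121 to 0.0291 in the chosen animals and from 0.0219 to 0.0609 in the other 7, so the chosen ipsilateral libraries lay within the range of the contralateral ones. Because Lgals3 and Polr2a chose the animals, their values are given as a description. Lgals3 stayed in the table of 193 genes that was fitted, so counts over these genes include it unless it is said to be left out, and its p is not reported.

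**Figure D1:**
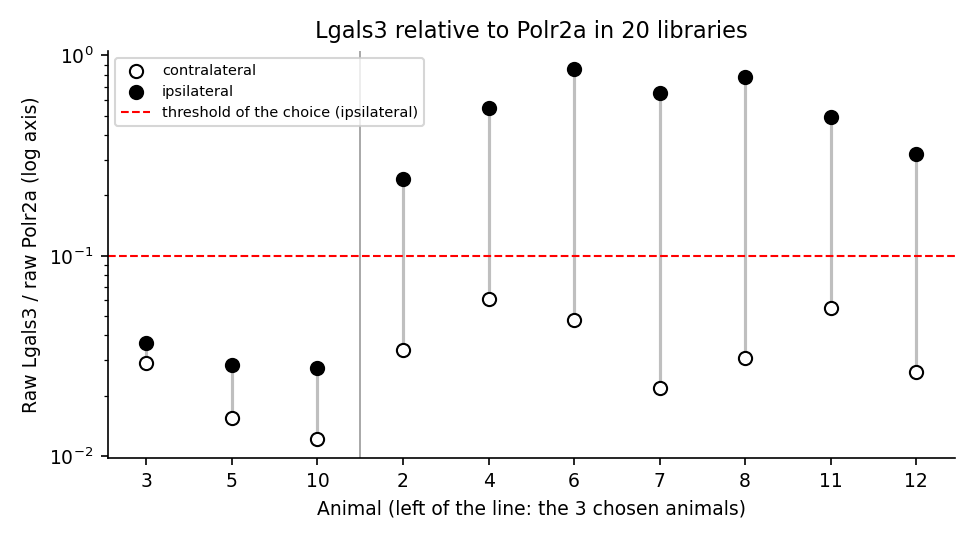
Raw Lgals3 count divided by raw Polr2a count (log axis) in the contralateral (open) and ipsilateral (filled) library of each of 10 animals. The ipsilateral points of animals 3, 5 and 10 sit below the dashed threshold of 0.1, and those of the other 7 animals sit at 0.242 or higher.

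All animals were female rats with a controlled cortical impact, in which a piston strikes the exposed cortex to model brain trauma. The contralateral hemisphere is the opposite side of the same injured brain, not tissue of an uninjured animal. Animals received human neural stem cells immortalized with L-myc, by the nose, or vehicle. The treatment of each animal is not in the labels used here, so the 3 chosen animals may share or mix treatments. Strain, age and the time after injury are not given in the sources used here. RNA of snap-frozen tissue was counted on the NanoString nCounter, which counts barcoded probes bound to RNA without amplification.

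After a contusion, resident microglia and incoming macrophages clear debris. They make galectin-3 (Lgals3), a lectin of activated phagocytes, together with lysosomal proteins, complement and matrix components. Neurons near a lesion may lose activity-regulated transcripts such as Egr1, a transcription factor that synaptic activity switches on within minutes. Map2k4 encodes a kinase that activates the JNK and p38 stress pathways. The comparison asks which transcripts differ between the hemispheres where galectin-3 stayed low.

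The panel held 750 endogenous genes, 20 genes taken as housekeeping genes and 14 control probes, and its totals without controls ranged from 34454 to 109348 counts in the 6 libraries. None of the accessions of the 770 probes (0) was among the rat RefSeq transcripts of GRCr8, although 705 of their symbols were rat symbols. Symbols such as H2-Aa and G6pdx follow mouse usage, and how well each probe matches rat RNA was not tested. Levels of different genes are therefore not compared. Negative controls, which have no target, reached 16 counts in the 6 libraries. The mean raw count over the 20 libraries was under 20 for 557 endogenous genes, and 519 of these never exceeded that value there. The other 193 genes were tested. The hemispheres were counted in separate sets, per the file headers. Positive controls had geometric means of 562 to 601 counts in the ipsilateral and 403 to 494 in the contralateral libraries of the 3 animals, so set and hemisphere cannot be told apart.

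In these 3 brains no gene passed the test between hemispheres. The edgeR quasi-likelihood test, with the animal as a block, called 0 of 193 genes higher (0%) and 0 lower (0%) at adjusted p under 0.05. DESeq2 also called 0. At an unadjusted edgeR p under 0.05 there were 10 of 193 genes (5.18%), or 9 of 192 (4.69%) with Lgals3 left aside, all on the higher side. That direction depends on the scaling, since TMM gave 2 higher and 2 lower and median centring 1 higher and 4 lower. DESeq2 had 1 gene there and limma 10. The edgeR number was 18 without animal 3, 2 without animal 5 and 1 without animal 10. Estimates were small. The median log2 fold change, ipsilateral over contralateral, was 0.10, the middle 50% of genes lay between 0.00060 and 0.22, and the extremes were -0.53 and 0.81. Estimates lay above 0 for 145 genes, but for 94 with TMM scaling and 54 with each library set to its own median, so signs near 0 depend on the scaling. No gene (0%) had an estimate of 2-fold or more, and 6 (3.11%) were at least 1.5-fold higher and 0 (0%) lower. These 6 were Pou2f2, Lgals3, Cd74, Cd68, Tbk1 and Cxcl5, and without Lgals3 they were 5 of 192 (2.6%). The same model in the other 7 animals gave 44 genes at least 2-fold higher (22.8%) and 2 lower (1.04%), together 46 (23.8%). At 1.5-fold it gave 77 higher (39.9%) and 8 lower (4.15%), together 85 (44%), with Lgals3 among the higher genes at both thresholds. Without it, 43 of 192 (22.4%) and 76 of 192 (39.6%) were higher. Of the tested genes, 33 averaged under 20 counts in the 6 chosen libraries and reached the minimum only through the other 7 animals. The counts of the other 7 animals are thus in part a condition of being tested. The median log2 fold change there was 0.43, beside 0.10 here, and the counts were not adjusted for this shift. The difference between the animals was not tested, since the animals were split by an ipsilateral level.

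The 95% intervals rest on the fitted standard errors, with 386 degrees of freedom pooled over genes. They do not state what the 3 pairs of a single gene could exclude on their own. For 164 of 193 genes this fitted interval lay inside 2-fold in either direction, and for 87 it lay inside 1.5-fold. The remaining genes were mostly of low count, since 96 of the 100 genes that averaged 100 raw counts or more over all 20 libraries had an interval inside 2-fold. With only 3 pairs the fit assigned every gene a spread from a trend shared by all genes of similar count. A gene whose pairs disagree can therefore have a standard error smaller than its own pairs would give. The complement gene C4b had an interval from -0.11 to 0.90, inside 2-fold. Its differences in animals 3, 5 and 10 were 0.28, -0.16 and 1.39. Values of each pair are shown for that reason.

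Pairs were compared as log2(scaled count + 1), where a scaled count is the raw count divided by a library factor from 17 housekeeping genes. Animal 3 had the narrowest differences. Its genes of mean count 100 or more had an SD of 0.17 between hemispheres, against 0.24 in animal 5 and 0.43 in animal 10, and 0.68 to 1.37 in the other 7 animals. Over the same genes the median distance between hemispheres of a brain was 0.12 (animal 3), 0.23 (animal 5) and 0.17 (animal 10) on the log2 scale. The distance between contralateral libraries of these 3 animals was 0.14 to 0.20, and between ipsilateral libraries 0.17 to 0.22. The range of distances within brains thus overlapped both ranges between brains.

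**Figure D2:**
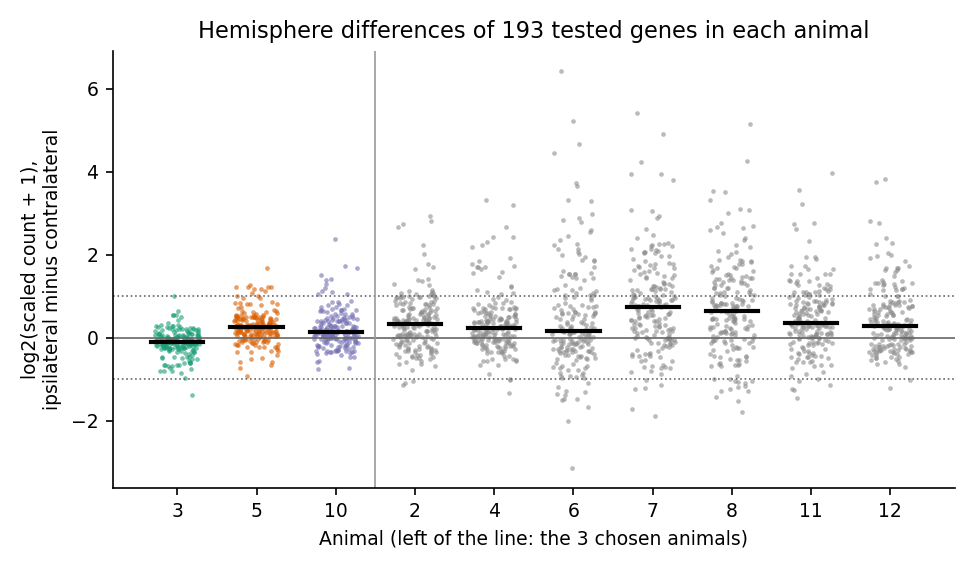
Difference of log2(scaled count + 1), ipsilateral minus contralateral, for each of 193 tested genes (points) with the median (bar) in each of 10 animals, and dotted lines at a 2-fold difference. In animal 3 all but 2 genes lie within the dotted lines, in animals 5 and 10 all but 12 each, and in the other 7 animals between 27 and 81 lie outside.

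In all, 25 genes differed 2-fold or more in any of the 3 pairs, 24 of them in a single pair and 1, Lgals3, in 2 pairs. In animal 5 the 12 genes were all higher ipsilaterally and none of them counted above 39 in either library, for example Cxcl5 (a chemokine) with 24 raw counts against 12. For 11 of these 12 genes the contralateral library of animal 5 was below all 4 libraries of animals 3 and 10, and for 5 its ipsilateral library was above all 4. The scaled negative controls of that pair stood at 9.12 ipsilaterally and 3.90 contralaterally, and their part in these 12 genes was not tested. In animal 10 the 12 genes were again all higher, and included Col3a1, Vim, Cd74, C4b, Cd68, Ifitm2, Anxa1, Fn1 and Lgals3. Itga1, Prkcd and Colec12 completed them and are named here after their values were seen. As in animal 5, the contralateral library was below all 4 libraries of the other chosen animals for 11 of the 12 genes, and for 7 its ipsilateral library was above all 4. The contralateral library of animal 10 had the lowest total of the 20, 34454 counts, and a scaled negative control mean of 10.7 against 3.90 to 9.12 in the other 5 libraries.

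Phagocyte genes showed no called difference. Cd68, a lysosomal membrane protein of phagocytes, had 13.7, 15.1 and 9.01 scaled counts contralaterally in animals 3, 5 and 10, and 16.2, 21.1 and 23.4 ipsilaterally. All 3 ipsilateral values exceeded all 3 contralateral ones, at counts close to background, with a log2 fold change of 0.61 ± 0.38 (SE, n = 3 pairs, edgeR adjusted p = 0.934). In the other 7 animals ipsilateral Cd68 was 86.9 to 301 scaled counts. Cd68 averaged 16 raw counts in the 6 chosen libraries and reached the minimum only through those animals. Its higher level there is in part a condition of being tested. Lyz2, lysozyme of myeloid cells, had 198, 113 and 94.6 against 162, 164 and 126, a log2 fold change of 0.18 ± 0.18 (SE) with an interval from -0.17 to 0.54. Its hemispheres overlapped. Of the 12 phagocyte markers on the panel 5 were tested, 0 were called and 3 had estimates above 0, beside 145 of all 193 tested genes. The median was 0.18 for the 5 and 0.10 for all tested genes. These markers summed to 286 to 323 scaled counts in the ipsilateral and 236 to 328 in the contralateral libraries, and to 756 to 1828 in the ipsilateral libraries of the other 7 animals. In tissue RNA, fewer cells of a type and less RNA per cell cannot be told apart.

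Genes of the lysosome and of lipid handling included well-counted members. Ctss (cathepsin S, a lysosomal protease of microglia) had 480, 474 and 414 scaled counts contralaterally and 552, 526 and 503 ipsilaterally. It was higher in 3 of 3 pairs without overlap, by a log2 fold change of 0.21 ± 0.12 (SE, n = 3 pairs, edgeR adjusted p = 0.934), and its interval reached 0.45. Apoe, the main lipid carrier of the brain, had 11191, 9440 and 8957 contralateral against 9971, 11757 and 8412 ipsilateral scaled counts. The sides overlapped and the log2 fold change was 0.02, with an interval from -0.25 to 0.29, whereas Apoe was 2.72-fold higher ipsilaterally in the other 7 animals. Abca1, a cholesterol exporter, stood at 0.16 with an interval from -0.10 to 0.43, and the lysosomal membrane protein Lamp2 at 0.03 (-0.24 to 0.30). In this list 7 of 13 panel genes were tested, 0 were called, and 7 had estimates above 0, with a median of 0.17. Lgals3 is 1 of the 7, and without it 6 of 6 were above 0 with the median again 0.17. Over all tested genes 145 of 193 were above 0 with this scaling and 54 under median centring.

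Complement, interferon and antigen presentation genes differed from pair to pair. C4b, a component of the classical complement pathway, had 89.7, 69.1 and 27.0 scaled counts contralaterally and 109, 61.6 and 72.3 ipsilaterally, so that its log2 fold change of 0.40 ± 0.26 (SE) came mainly from animal 10. Ifitm2, an interferon-induced membrane protein, had 112, 80.4 and 54.0 contralaterally and 114, 115 and 125 ipsilaterally. Its ipsilateral values were nearly equal and its contralateral ones were not, and the log2 fold change was 0.51 ± 0.22 (SE, n = 3 pairs, edgeR adjusted p = 0.825). Ifi44, another interferon-induced gene, stood at 0.05 with an interval from -0.54 to 0.64, and Ifih1, a sensor of viral RNA, at 0.18 (-0.46 to 0.83). Cd74, a chaperone of MHC class II, stood at 0.65 ± 0.30 (SE) and was lower ipsilaterally in animal 5 (35.7 against 41.6 scaled counts). Of the tested genes 0 of 3 complement, 0 of 7 interferon response and 0 of 5 antigen presentation genes were called, with medians of -0.02, 0.09 and 0.15.

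Matrix and repair genes had the highest median among lists with more than 1 tested gene, 0.24, with 0 of 11 tested genes called. Fn1 (fibronectin) had 86.0, 65.3 and 65.3 scaled counts contralaterally and 90.8, 92.5 and 136 ipsilaterally, without overlap, at a log2 fold change of 0.51 ± 0.23 (SE, n = 3 pairs, edgeR adjusted p = 0.825). The same model gave Fn1 3.54-fold in the other 7 animals. Col3a1, a fibrillar collagen, had 126, 53.9 and 15.8 contralaterally and 102, 81.1 and 86.2 ipsilaterally. Its pair differences were -0.30, 0.58 and 2.38, with an SD of 1.37, which gives an SE of 0.79 over 3 pairs beside the fitted SE of 0.25. Vim (vimentin) stood at 0.31, Anxa1 (annexin A1) at 0.38 and A2m (the protease inhibitor alpha-2-macroglobulin) at 0.15, each with an interval that spans 0. In the other 7 animals these 3 genes stood at 2.78, 3.33 and 3.21 on the same scale. Vim averaged 18 raw counts in the 6 chosen libraries and reached the minimum only through the other 7 animals. Its higher ipsilateral level there is in part a condition of being tested. Tgfb1, which drives matrix production, was higher in 3 of 3 pairs at 0.36 ± 0.30 (SE).

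**Figure D3:**
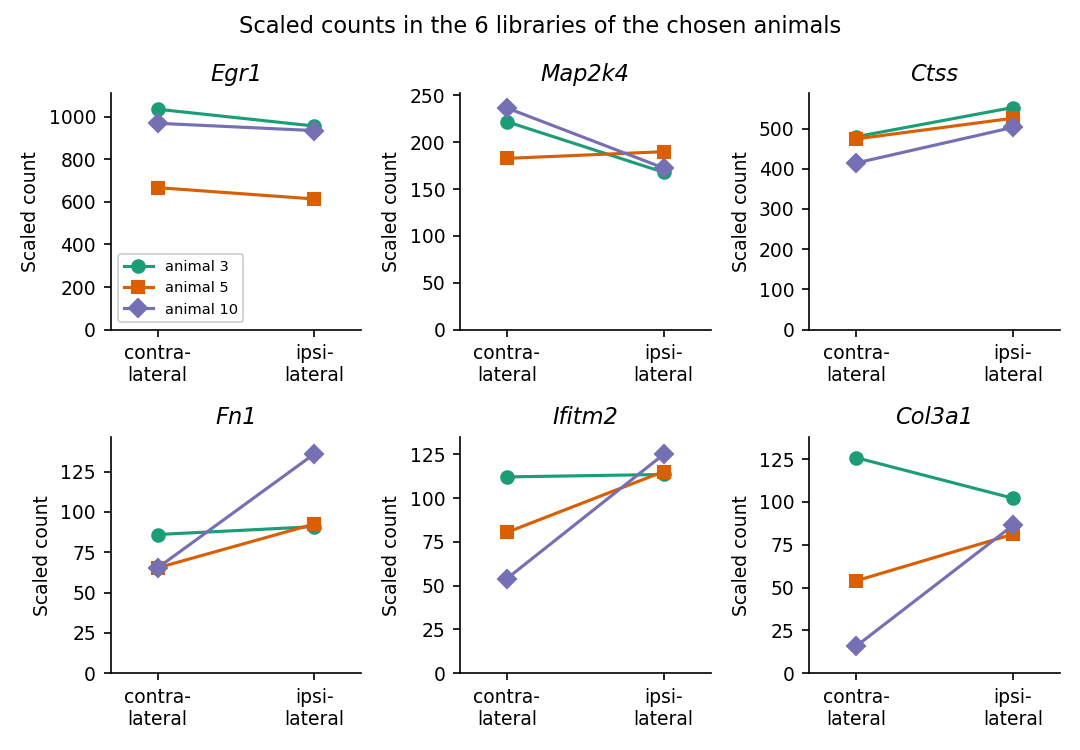
Scaled counts (vertical axes from 0) of 6 genes in the contralateral and ipsilateral library of animals 3, 5 and 10, joined by animal. Lines for Egr1 are nearly flat, and for Col3a1 and Ifitm2 the ipsilateral points lie closer together than the contralateral ones.

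Activity-regulated transcripts gave no called gene, and Egr1 differed little between hemispheres with this scaling. Egr1 had 1034, 666 and 968 scaled counts contralaterally and 955, 613 and 934 ipsilaterally in animals 3, 5 and 10. It was lower ipsilaterally in 3 of 3 pairs by a small margin, with pair differences of -0.11, -0.12 and -0.05. The log2 fold change was -0.10 ± 0.12 (SE, n = 3 pairs, edgeR adjusted p = 0.934), with a fitted interval from -0.32 to 0.13. This interval rests on a spread pooled over genes, so it does not state what the 3 pairs alone could exclude. The median difference over all tested genes was -0.10, 0.26 and 0.13 in these pairs, so the margin of Egr1 depends on the scaling. In the other 7 animals ipsilateral Egr1 was 212 to 434 scaled counts (median 363) and contralateral Egr1 456 to 921 (median 851), so the chosen ipsilateral libraries lay above all 7 ipsilateral ones. Egr3, a related factor, stood at -0.09 (-0.43 to 0.24) and Ptgs2, a prostaglandin synthase that active neurons express, at -0.07 (-0.35 to 0.22). Fos stood at -0.12 (-0.57 to 0.33). Jun was higher in 3 of 3 pairs without overlap, at 0.17 ± 0.13 (SE, n = 3 pairs, edgeR adjusted p = 0.934). It had 282, 287 and 293 contralateral and 317, 346 and 304 ipsilateral scaled counts. Its difference in animal 10 was 0.05, below the median of 0.13 over all tested genes of that pair. Of 9 tested genes in this list 0 were called and 3 had estimates above 0, beside 145 of all 193 tested genes. The list had a median of -0.09.

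Kinase genes lay on both sides of 0. Map2k4 had 222, 183 and 236 scaled counts contralaterally and 168, 190 and 172 ipsilaterally. With this scaling animals 3 and 10 were lower and animal 5 was not. Its pair differences of -0.40, 0.05 and -0.45 each lay below the median over all tested genes of that pair (-0.10, 0.26 and 0.13). The direction in animal 5 therefore depends on the scaling. The log2 fold change was -0.27 ± 0.16 (SE, n = 3 pairs, edgeR adjusted p = 0.934) with an interval from -0.58 to 0.04, beside 0.47-fold in the other 7 animals. Map4k2, an upstream kinase of the JNK pathway, was lower in 3 of 3 pairs at -0.53 ± 0.35 (SE) on a mean raw count of 22.3. Map3k5, which relays oxidative stress to JNK and p38, stood at -0.12 (-0.54 to 0.30) and Mapk8, which encodes JNK1, at 0.17 (-0.13 to 0.47). Of 12 tested genes of the MAP kinase cascade 0 were called, with a median of 0.08.

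Neuronal and synaptic transcripts had estimates from -0.11 to 0.09 over 8 tested genes, with 0 called and a median of 0.04. Cyfip2, part of a complex that shapes synaptic actin, had 2913, 2974 and 2258 scaled counts contralaterally and 2844, 2780 and 2889 ipsilaterally, at 0.07 (-0.16 to 0.31). In the other 7 animals its ipsilateral counts were 1127 to 1999. Mpped1 stood at -0.11 (-0.40 to 0.19), App (the amyloid precursor) at 0.09 (-0.16 to 0.34) and Cd200 (a neuronal ligand that restrains microglia) at 0.08 (-0.17 to 0.33). The whole list summed to 11074 to 12411 scaled counts ipsilaterally and 10736 to 11860 contralaterally. In the ipsilateral libraries of the other 7 animals the sum was 7444 to 9501. App had 5307 to 6683 scaled counts in the 6 chosen libraries and Cyfip2 2258 to 2974, so the sum follows mainly these 2 genes. Among vascular genes, Cdh5 of endothelial junctions stood at 0.13 (-0.53 to 0.79), the angiopoietin receptor Tek at 0.22 (-0.24 to 0.68) and the growth factor Vegfa at 0.11 (-0.11 to 0.34), and 0 of 6 tested endothelial genes were called.

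**Figure D4:**
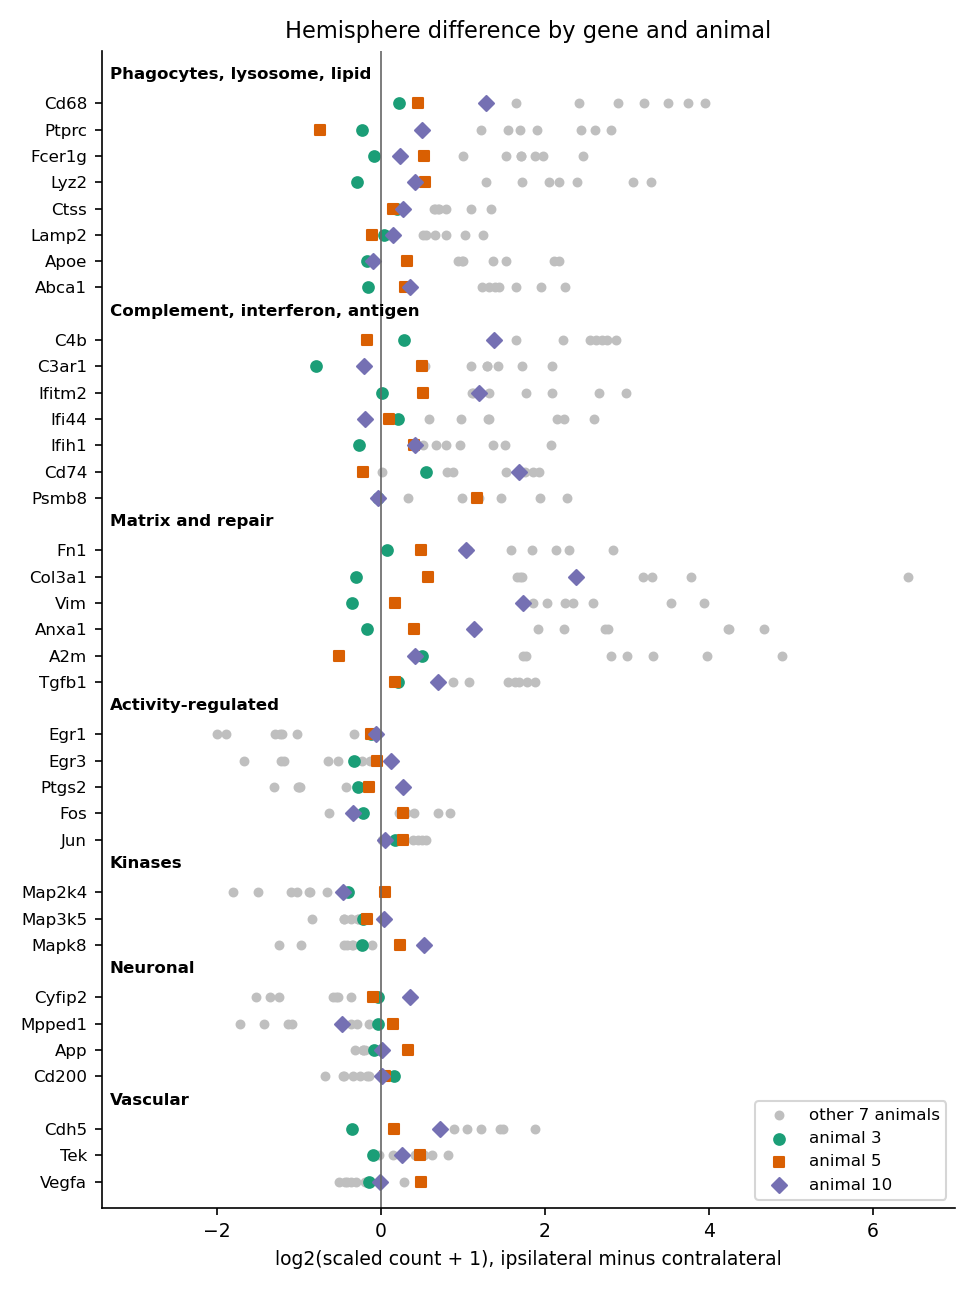
Difference of log2(scaled count + 1), ipsilateral minus contralateral, for named genes by group, in animals 3, 5 and 10 (coloured) and in the other 7 animals (grey). Egr1 of the 3 animals lies between -0.12 and -0.05, and Cd68 between 0.23 and 1.28.

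Genes with the same direction in every pair were 32 higher (16.6%) and 9 lower (4.66%), together 41 of 193 (21.2%), with Lgals3 among the higher ones. The median difference over all tested genes was -0.10, 0.26 and 0.13 in animals 3, 5 and 10, so these directions depend on the scaling. Ctss and Tgfb1, for example, were higher in 3 of 3 pairs but lay below that median in animal 5, at 0.15 and 0.17. Genes whose 3 ipsilateral libraries did not overlap the 3 contralateral ones were 11 higher (5.7%, Lgals3 among them) and 2 lower (1.04%), together 13 (6.74%). The largest estimate belonged to Pou2f2, a transcription factor of B cells and other cells, with 31.1, 26.5 and 47.3 scaled counts contralaterally and 49.5, 63.3 and 68.0 ipsilaterally. Its log2 fold change was 0.81 ± 0.31 (SE, n = 3 pairs, edgeR adjusted p = 0.825), beside 0.61 in the other 7 animals. Tbk1, a kinase of innate immune signalling, was higher in 3 of 3 pairs at 0.60 ± 0.28 (SE), with 36.1, 59.6 and 58.5 against 73.8, 74.6 and 80.4 scaled counts, and stood at -0.04 in the other 7 animals. On the lower side, Cd7, a surface protein of T cells (39.9, 35.0 and 38.3 against 33.2, 27.6 and 30.0 scaled counts) and Myc did not overlap, at -0.31 ± 0.33 and -0.33 ± 0.37 (SE). None of these 4 genes passed the test, each with adjusted p of 0.825 or more in edgeR.

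The other lists gave 0 called genes as well, among 15 tested genes of Toll-like receptor or NF-kB signalling (median 0.09), 8 of cytokine receptor and STAT signalling (0.03), 4 chemokines and receptors (0.20), 5 of cell death (0.16), 5 of autophagy (0.03) and 2 astrocyte markers (0.18). No neutrophil marker (0 of 7 on the panel) and 1 of 15 T and NK cell markers reached the minimum count. Neutrophil markers summed to 30.0 to 40.6 scaled counts ipsilaterally and 28.4 to 58.5 contralaterally. The panel held 0 of 8 oligodendrocyte markers. Cytokines central to neuroinflammation, named after their values were seen, were at background in all 6 libraries. Raw counts were 3 to 7 for Tnf, 2 to 11 for Il1b and 3 to 5 for Il6. In the ipsilateral libraries of the other 7 animals they reached only 11, 12 and 10, so this is not particular to the chosen brains. How well these probes match rat RNA was not tested, so low counts do not show low expression.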

How the data were processed

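The deposited counts are whole numbers for each probe, from an nCounter Digital Analyzer and nSolver per the series design text, which gives no version. That text describes normalization, but negative and positive control rows differ between libraries and all values are whole, so the deposited counts were treated as raw. It names 10 housekeeping controls. Housekeeping rows are not marked, and the 20 genes of the second alphabetical block of symbols were taken. A second table of 770 rows repeats the counts under another animal number in 20 of 20 columns, with all 10 pairs kept. Numbers here follow the matrix headers.

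Factors were geometric means of 17 housekeeping genes of mean count 20 or more. They include Polr2a, which helped choose the animals. In the other 7 animals, scaled Gusb differed by 1.36, Polr2a by 0.36 and Ppia by -0.43 (mean log2, ipsilateral minus contralateral). Hprt stood at -0.53 and Oaz1 at -0.63, and the rest lay between -0.28 and 0.31. Values set beside those animals rest on these factors. Gusb stood at 1.09, -0.52 and 0.05 in animals 3, 5 and 10. Leaving out Gusb or Polr2a kept 0 genes called in the 3 chosen animals. Genes of mean raw count 20 or more over 20 libraries were tested with edgeR 4.0.16 in R 4.3.3 (glmQLFit, glmQLFTest, two-sided, Benjamini-Hochberg over 193 genes, threshold 0.05), with the animal as a block, on the 6 libraries of the chosen animals. Intervals are 95%. The pairing comes from the titles. Deviations of the 2 libraries of an animal correlated at 0.45, 0.04 and 0.14 across 100 genes in animals 3, 5 and 10. Libraries of different animals correlated at -0.50 to 0.31, a range that holds the values of animals 5 and 10. These correlations therefore do not decide the pairing. For any single gene, 3 pairs allow no exact two-sided sign-flip permutation p below 0.25. DESeq2 1.42.0, limma 3.58.1 and other scalings and filters were alternatives. Chi-square statistics per degree of freedom between libraries of a hemisphere were 2.74 to 4.85, so none was taken as a repeat.

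The animals, members and gene lists were chosen with earlier results of these data known. Named genes are Egr1, Map2k4, Lgals3, Polr2a, further genes fixed by name, the up to 8 genes per direction with the smallest p and 1 direction in every pair, and up to 4 members per list with the smallest p. Since an ipsilateral level chose the animals, small differences in genes that vary with Lgals3 are no independent finding. The edgeR p-values rest on a spread shared by genes of similar count, not on each gene's own spread between the animals. That shared spread comes from 3 animals whose treatments are unlabelled.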

Additional observations from a re-analysis of the deposited data

Results flagged for a closer look

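Of 193 tested genes, 5 had 1 sign of the hemisphere difference in every chosen pair and the opposite sign in all 7 others. Over all tested genes, 41 of 193 (21.2%) had the same direction in all 3 chosen pairs. The difference between the sets of animals was not tested. With each pair centred on its median difference, a setting chosen after seeing the data, Rsad2 and Myc kept this pattern and Cd200, Egfr and Lrrn3 did not. Rsad2, an interferon-induced antiviral enzyme, had a log2 fold change of -0.41 in the 3 chosen animals and 2.07 in the other 7. Its mean raw count was 9.67 in the 6 libraries, near background. In animal 5 its difference was -0.03, on 4 raw counts ipsilaterally and 7 contralaterally. Myc, a growth-related transcription factor, had -0.33 against 0.91, on a mean raw count of 16.5. Both averaged under 20 counts in the 6 libraries and reached the minimum only through the libraries of the other 7 animals, so their higher ipsilateral level there is in part a condition of being tested. Cd200, a neuronal ligand, had 0.080 against -0.35, and after centring it was higher in 1 of the 3 chosen pairs. Egfr, a growth factor receptor, had -0.18 against 0.53, and Lrrn3, a leucine-rich repeat protein, 0.10 against -0.46, and Lrrn3 too was higher in 1 of the 3 chosen pairs after centring. The last 2 genes are named after their values were seen.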

How the results depend on the processing

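The count of called genes was 0 under each of 17 alternatives, with 1 to 18 genes at an unadjusted p under 0.05 and lowest adjusted p-values between 0.138 and 0.999. They were 6 scalings, 3 filters, all 20 libraries in the fit, no replicate block (0 called, 8 at an unadjusted p under 0.05), DESeq2, background subtraction, limma (chosen after seeing the data) and each animal left out. Every tested list kept 0 called genes under them. Over the tested genes the median log2 fold change moved from 0.10 to -0.0059 when TMM factors replaced the housekeeping factors, and to -0.094 under median centring. Estimates above 0 numbered 145, 94 and 54 of 193 in that order, so the general lean toward higher values depends on the scaling. Of 81 named genes, none of them called, 25 changed sign under median centring, 10 under TMM, 10 under the size factors of DESeq2, 9 to 11 when an animal was left out, and 1 each with background subtraction and limma. Genes at an unadjusted p under 0.05 were 10 higher and 0 lower with housekeeping factors, 2 and 2 under TMM and under the DESeq2 size factors, 1 and 4 under median centring, and 10 and 5 with no filter. Without animal 3, 5 or 10 the median was 0.03 to 0.19. Low counts limit 33 tested genes with a mean under 20 in these libraries, for which intervals are wide.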
